A study of Mus musculus with 28 samples.

Results

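The genes described here are the thyroid hormone receptors Thra and Thrb, the retinoid X receptors Rxra, Rxrb and Rxrg, and the corepressor gene Ncor1, measured in mouse heart. Members were found by symbol: every probe set whose annotation gives 1 of these 6 symbols alone was taken. This gave 9 probe sets of 5 genes, out of 18193 genes with such a probe set: 3 for Thra, 3 for Rxra and 1 each for Thrb, Rxrb and Rxrg. No probe set was listed under Ncor1 alone, and Ncor1 is not analysed here. A probe set is a group of short probes on an array that read 1 stretch of a transcript. The probe sets of a gene read different stretches, which need not lie in the same transcript.

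Total RNA from frozen hearts of 28 mice was labelled with biotin and read on 28 one-colour arrays of the Affymetrix type. The 4 groups of 7 animals were untreated controls, controls given WY14643, untreated animals of the del337TR strain, and del337TR animals given WY14643, which is a synthetic activator of the nuclear receptor PPARalpha. The series is about resistance to thyroid hormone, and the labels describe the strain only as a deletion in 337TR. The sources used here do not give which receptor gene carries the deletion, the promoter or cells in which it is expressed, the strain background, the age, or the dose and duration of WY14643. The signals below therefore check no label of the strain. A split by the X-linked gene Xist and the Y-linked gene Eif2s3y gave 2 female and 5 male controls, 4 and 3 untreated del337TR animals, 3 and 4 treated controls, and 1 and 6 treated del337TR animals.

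Thyroid hormone receptors sit on their target genes with or without hormone, usually as a heterodimer with a retinoid X receptor. Without hormone the pair holds corepressors such as NCoR, which bring histone deacetylase HDAC3 to the gene, and hormone exchanges these for coactivators. Retinoid X receptors are also the partners of the PPARs, the retinoic acid receptors and several other receptors, so that these pathways draw on the same partner. In heart, thyroid hormone is known to raise the fast myosin Myh6 and the calcium pump Atp2a2 and to lower the slow myosin Myh7. Splicing of Thra gives a receptor that binds hormone and a variant that does not, and the end of the second lies over the gene Nr1d1 on the opposite strand.

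The half-site bound by these receptors is AGGTCA. It is shown because the same receptors and partners could meet it in the members' own promoters. It was searched on both strands in the RefSeq promoter windows of the GRCm38.p6 build, which run from 250 bases before to 50 bases after each annotated start. The table held 10 windows of members, 2 each for Thrb, Rxra, Rxrb, Rxrg and Ncor1, and none for Thra. AGGTCA stood in 3 of the 10, beside 16.26% of all 32851 windows of this length. The matches are given below on the strand of the gene with 20 flanking bases on each side, and the capitals mark the half-site or its reverse complement TGACCT.
Thrb, chr14:17660756-17660801, plus strand: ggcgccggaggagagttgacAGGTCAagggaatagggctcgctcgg
Rxrg, chr1:167618157-167618202, plus strand: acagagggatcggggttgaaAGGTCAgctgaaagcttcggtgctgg
Rxra, chr2:27709224-27709269, plus strand: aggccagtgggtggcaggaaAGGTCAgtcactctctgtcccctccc
Rxra, chr2:27709185-27709230, plus strand: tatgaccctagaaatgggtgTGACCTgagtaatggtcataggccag
Both Rxra matches come from 1 window and the 2 printed stretches overlap. The matches lay at -184 of the annotated start for Thrb, at -88 for Rxrg, and at -48 and -87 for Rxra. No member window held AGGTCA repeated in the same direction at a spacing of 4, the arrangement known for thyroid hormone receptors, or at a spacing of 1, the arrangement known for PPARs. These stood in 0.0152% and 0.0396% of all windows. A match is a description of these letters, and no binding was measured.

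Signals are the deposited linear values, which had been scaled to the same trimmed mean on every array. Median signals of the arrays ran from 60.1 to 77.8, and the ratio of 3' to 5' actin probe sets, which rises as RNA degrades, from 1.09 to 1.82. Replicate 7 was the array least like its group in all 4 groups, and replicate 7 of the treated controls also had the highest actin ratio. Values with and without it are given for Thra 1443952_at, Rxra 1425762_a_at, Rxrb and the gaps between probe sets that use the first pair. Precision was set by the 7 arrays of each group.

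All 9 probe sets except 1 had mean signals over the 28 arrays above those of genes that heart is not known to use. Olfactory receptor genes, 43 probe sets of them, had mean signals with a median of 44.5 and a highest value of 138.3. The probe set 1430497_at of Rxra had a mean of 11.7 over the 28 arrays, below all but 5 of the 43, and its values are read as background. The other 8 had means above all 43, from 141.5 for Thrb 1422202_at to 894.8 for Thra 1454675_at. Thrb and Rxra 1425762_a_at were close to that reference. Their means in single groups fell to 133 in treated controls for Thrb and 120 in treated del337TR for Rxra 1425762_a_at, below 138.3. Signals of different probe sets depend on the probes and are not compared with each other as amounts of RNA.

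No member passed the threshold in any comparison. Differences are given as log2 differences from limma with their standard error (SE, n = 7 per group), tested two-sided over all 45037 probe sets with Benjamini-Hochberg adjustment at 0.05. Untreated del337TR against untreated control called 0 of the 9, where 0.00222% of all probe sets passed. WY14643 in controls, WY14643 in del337TR and del337TR against control under WY14643 also called 0 of the 9, beside 0% of all probe sets in each. The same held for the difference of the WY14643 effects between strains, for strain averaged over treatment and for WY14643 averaged over strain. At an unadjusted p under 0.05 the treatment comparison counted 2 of 9 in controls (6.75% of all probe sets) and 1 of 9 in del337TR (5.78%). The strain comparison counted 0 of 9 both without WY14643 (4.01%) and under it (8.86%). The count was 0 of 9 for the difference of effects (4.9%), 1 of 9 for strain averaged (7.66%) and 2 of 9 for WY14643 averaged (7.5%). Every probe set so counted was one of Thra. The ranges of every member overlapped in each comparison of a pair of groups. Over all probe sets, the groups did not overlap in 0.0688% for strain without WY14643, 0.107% for strain under it, 0.0866% for the treatment in controls and 0.0733% for the treatment in del337TR.

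**Figure D1:**
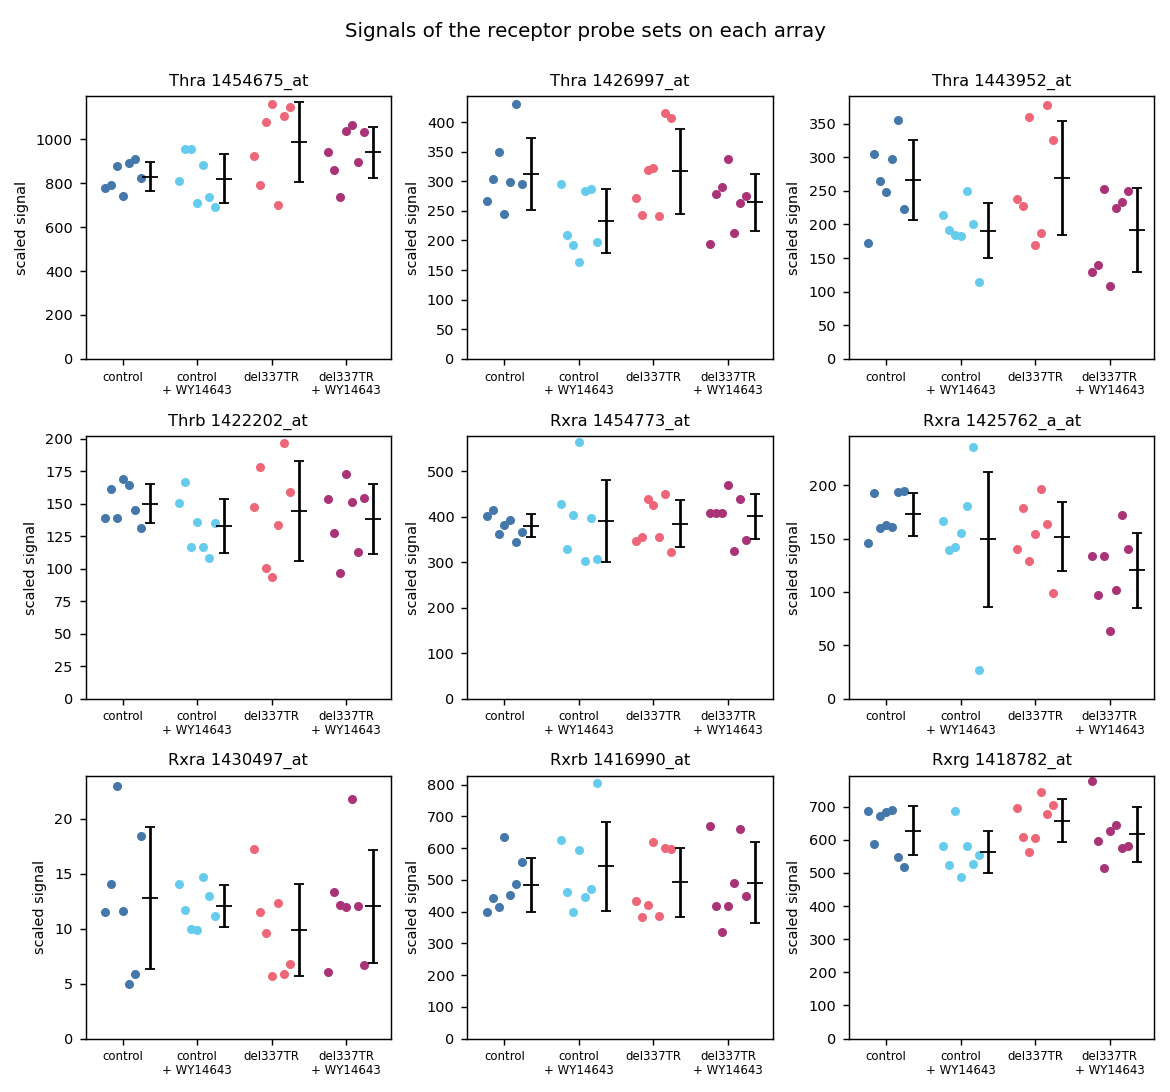
Scaled signal (linear axis from 0) of the 9 probe sets on each of the 28 arrays, 1 point per animal, by group, with the group mean and SD (n = 7) drawn beside the points. The 4 groups overlap in every panel, and 1 treated control lies far below the others in Rxra 1425762_a_at, at 26.7.

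Thra, the receptor that predominates in heart muscle, had 3 probe sets above background. The brightest, 1454675_at, had signals from 739.8 to 910.9 in controls (median 822.3) and from 690.7 to 954.1 in treated controls (median 812.1). It had signals from 701.7 to 1162.8 in del337TR (median 1079.8) and from 739.3 to 1066.8 in treated del337TR (median 940.5). Untreated del337TR animals were split: 5 of the 7 lay above the highest control and 1 below the lowest. Their mean of 988 ± 184 (SD, n = 7) stood beside a control mean of 831 ± 65.1.

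The log2 difference of 1454675_at was 0.23 ± 0.12 for strain without WY14643 (limma adjusted p = 0.999) and 0.20 ± 0.12 for strain under WY14643 (adjusted p = 0.654). Averaged over treatment the strain difference was 0.21 ± 0.08 (95% interval 0.04 to 0.38, limma adjusted p = 0.585). In that comparison markers were higher for 7 of 7 fibroblast genes (median 0.21), 5 of 5 endothelial (0.11) and 3 of 3 atrial (1.35). Skeletal muscle markers were higher for 5 of 6 (0.24), beside 0.01 over all genes. Adipocyte markers were lower for 2 of 3 (-0.12), as was the 1 erythroid marker (-0.20). Cardiomyocyte, smooth muscle and leukocyte medians were 0.01, 0.02 and 0.00. Their part in the Thra value was not tested. WY14643 left this probe set at -0.03 ± 0.12 in controls and -0.06 ± 0.12 in del337TR. All 7 treated del337TR animals lay below the median of the untreated ones, though within their range, and 4 of 7 treated controls lay below that of the untreated controls.

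The second Thra probe set, 1426997_at, lay lower in treated animals. Its signals ran from 245.2 to 430 in controls (median 299.2) and from 163.9 to 295.6 in treated controls (median 208.6). In del337TR they ran from 240.6 to 415.2 (median 318.5) without and from 194.4 to 338.2 (median 275.4) with WY14643. All 7 treated controls lay below the median of the untreated controls, 4 of them below the lowest, and 6 of 7 treated del337TR animals lay below the median of the untreated ones. The log2 difference with WY14643 was -0.44 ± 0.16 in controls (95% interval -0.78 to -0.10, limma adjusted p = 0.698) and -0.25 ± 0.16 in del337TR (adjusted p = 0.901). With sex as a covariate the latter was -0.13 ± 0.16, where the untreated and treated groups held 4 and 1 females. Averaged over strain it was -0.35 ± 0.12 (95% interval -0.58 to -0.11, adjusted p = 0.520).

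The third, 1443952_at, showed a like difference. Its signals ran from 172.9 to 354.8 in controls (median 265) and from 114.9 to 249.3 in treated controls (median 191.8). In del337TR they ran from 168.9 to 377.2 (median 237.8) without and from 108.8 to 253.1 (median 224.7) with WY14643. All 7 treated controls lay below the median of the untreated controls, and 5 of 7 treated del337TR animals below that of the untreated ones. The log2 difference with WY14643 was -0.48 ± 0.22 in controls (95% interval -0.94 to -0.02, limma adjusted p = 0.735) and -0.51 ± 0.22 in del337TR (-0.96 to -0.05, adjusted p = 0.844). Averaged over strain it was -0.49 ± 0.16 (95% interval -0.82 to -0.17, limma adjusted p = 0.478), the smallest adjusted p of a member. Without replicate 7 of the treated controls, the lowest treated control at 114.9, the difference in controls was -0.36.

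In the order of its group means, 1443952_at held the only neighbours that differed by more than their spread: untreated controls, at 267 ± 59.5, and treated del337TR animals, at 191 ± 62.5. Untreated del337TR animals stood highest at 269 ± 84.2 and treated controls lowest at 191 ± 40.6. For the other 8 probe sets every gap between neighbouring groups was smaller than the larger SD of the 2 groups. For strain the 95% intervals of Thra 1426997_at and 1443952_at held 0 both without and under WY14643. Under WY14643 the log2 difference was 0.20 ± 0.16 for 1426997_at and -0.04 ± 0.22 for 1443952_at. Without WY14643 it was 0.01 ± 0.16 for 1426997_at and -0.02 ± 0.22 for 1443952_at. The 95% interval of the latter, from -0.48 to 0.44, leaves room for sizeable differences in either direction.

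Probe sets of the same gene were compared within each array, as the difference of their log2 signals, over 30372 pairs of 9010 genes. None of the 6 member pairs passed limma's test in any comparison, beside 0% of all pairs. At an unadjusted p under 0.05 the treatment comparison counted 1 of 6 in controls (5.96% of all pairs), 0 of 6 in del337TR (5.98%) and 2 of 6 averaged over strain (6.67%). The strain comparison counted 0 of 6 without WY14643 (4.85%), under it (6.09%) and averaged (5.75%), as did the difference of effects (4.9%). With WY14643 the gap between 1454675_at and 1426997_at of Thra differed by 0.41 ± 0.16 in controls (limma adjusted p = 0.780) and by 0.30 ± 0.11 averaged over strain (adjusted p = 0.664). The gap between 1454675_at and 1443952_at differed by 0.46 ± 0.22 in controls, 0.45 ± 0.22 in del337TR and 0.45 ± 0.16 averaged (limma adjusted p = 0.619). Without replicate 7 of the treated controls it was 0.38 ± 0.23 in controls and 0.41 ± 0.16 averaged. The gap between 1426997_at and 1443952_at differed by 0.04 ± 0.22 in controls, or -0.04 ± 0.22 without that array, and by 0.26 ± 0.22 in del337TR. Which Thra transcripts each probe set reads is not given in the annotation used here. The mean of the 3 probe sets stood at -0.32 ± 0.13 for WY14643 in controls and -0.27 ± 0.13 in del337TR (limma adjusted p = 0.669 and 0.847 over 18193 genes).

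Array measures and markers of other cells moved beside the WY14643 comparison in both strains, some up and some down. In controls the actin ratio averaged 1.39 ± 0.21 (SD, n = 7) with and 1.25 ± 0.12 without WY14643, and in del337TR 1.23 ± 0.09 with and 1.29 ± 0.08 without it. With the ratio as a covariate, 1443952_at stood at -0.33 for WY14643 in controls and -0.58 in del337TR. Endothelial markers were lower in treated controls for 5 of 5 genes (median log2 difference -0.19) and fibroblast markers for 5 of 7 (median -0.23), none past the threshold. Their summed signals overlapped between groups, from 1694.3 to 3166.4 in treated and 2526.9 to 3055.7 in untreated controls for endothelial markers. For fibroblast markers they ran from 16350.7 to 21175.5 and from 16889.7 to 21644.9. Higher in treated controls were atrial markers for 3 of 3 (0.49), adipocyte markers for 3 of 3 (0.14) and cardiomyocyte markers for 7 of 8 (0.15). The median over all genes was -0.03 there. In del337TR smooth muscle markers were lower with WY14643 for 4 of 4 genes (median -0.51), atrial markers for 3 of 3 (-0.96), adipocyte markers for 3 of 3 (-1.30) and fibroblast markers for 5 of 7 (-0.08). Higher in del337TR were leukocyte markers for 4 of 5 (0.15), skeletal muscle markers for 5 of 6 (0.16) and cardiomyocyte markers for 6 of 8 (0.10), beside -0.00 over all genes. Summed smooth muscle signals ran there from 3397.3 to 4958 with and 2867 to 6691.5 without WY14643. Thra 1443952_at followed the mean of the atrial markers at r = 0.36 and rho = 0.34 over the 28 arrays (permutation p = 0.0572 and 0.081, adjusted 0.309 and 0.312 over 27 relations), with r from 0.16 to 0.79 within groups and 0.18 without the 2 farthest arrays. The part of these in the Thra values was not tested. In whole heart RNA, fewer cells of a type and less RNA per cell cannot be told apart.

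Across the 28 arrays the 2 dimmer Thra probe sets varied together. Between 1426997_at and 1443952_at Pearson's r was 0.56 and Spearman's rho 0.57 (permutation p = 0.00183 and 0.00202, adjusted 0.011 and 0.0121 over the 6 pairs of probe sets of 1 gene). Without the 2 arrays farthest from the median r was 0.52, and with group means removed 0.42. Within single groups it ran from -0.09 to 0.67. Between 1454675_at and 1426997_at r was 0.42 (rho 0.37, permutation p = 0.0264 and 0.0533, adjusted 0.0792 and 0.16), and between 1454675_at and 1443952_at 0.25 (rho 0.24, permutation p = 0.209 and 0.224). These 2 values of r were 0.42 and 0.29 with group means removed, beside 0.42 for the dimmer pair. The permutations moved arrays across groups, so a group difference that 2 probe sets share is part of these p-values. With group means removed, the median r over 16155 pairs of brighter probe sets of 1 gene was 0.20, and the 3 Thra pairs lay above 74.0%, 60.2% and 74.1% of those. All arrays share 1 scaling, so part of any such r is common to all genes.

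**Figure D2:**
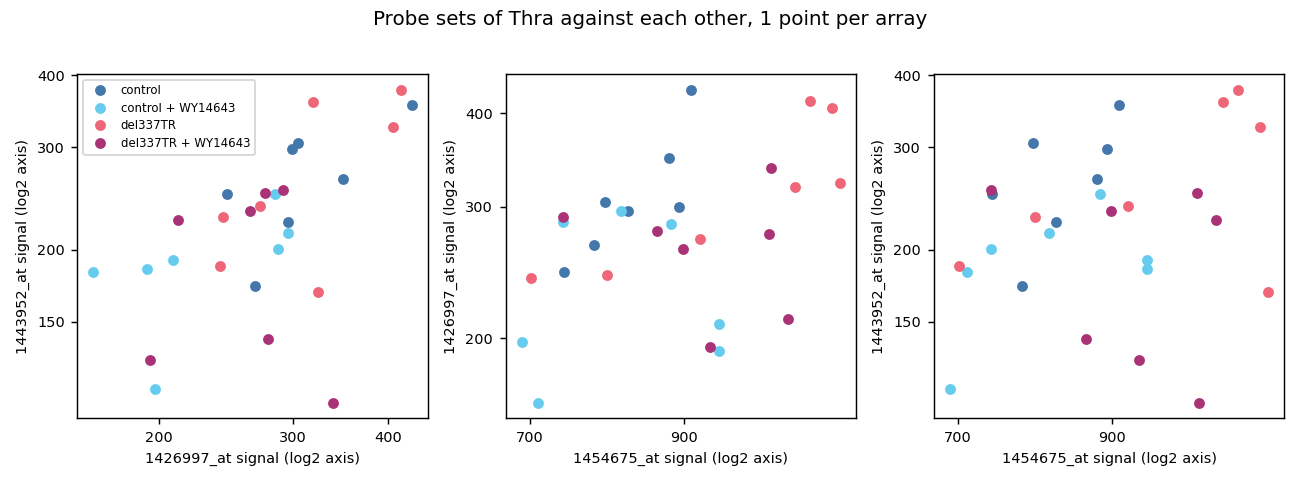
Signals of the 3 Thra probe sets against each other (both axes log2), 1 point per array and 1 colour per group. The 2 dimmer probe sets rise together over the 28 arrays (r = 0.56, left panel), and r with the brightest is 0.42 and 0.25 (middle and right). With group means removed, r is 0.42, 0.42 and 0.29 from left to right.

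Nr1d1, which encodes the clock repressor REV-ERBalpha, is the 1 gene that overlaps Thra in the RefSeq table, and it was looked at for this reason. Its signal ran from 108.7 to 326.6 over the 28 arrays. It correlated with 1443952_at at r = 0.48 and rho = 0.52 (permutation p = 0.00844 and 0.00467, adjusted 0.0253 and 0.014 over the 3 Thra probe sets). Without the 2 farthest arrays r was 0.53, with group means removed 0.52, and within single groups from 0.35 to 0.86. With 1426997_at it was 0.29 (rho 0.32, permutation p = 0.139 and 0.0989) and with 1454675_at 0.26 (rho 0.20, permutation p = 0.178 and 0.308). That 1443952_at differs from the others in this was not tested. With group means removed, 2.66% of 13324 genes correlated more highly with 1443952_at than Nr1d1 did, 10.6% with 1426997_at and 18.2% with 1454675_at. Nr1d1 itself stood at 0.03 ± 0.20 for WY14643 in controls and -0.19 ± 0.20 in del337TR (limma adjusted p = 0.989 and 0.960). Which strand 1443952_at reads was not examined.

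Thrb, the receptor beta, whose mutations are the usual cause of resistance to thyroid hormone in people, had 1 probe set, 1422202_at. Its signals ran from 131.5 to 169.5 in controls (median 145.1) and from 108.5 to 167.1 in treated controls (median 135.1). In del337TR they ran from 93.5 to 196.9 (median 147.6) without and from 96.5 to 173.1 (median 151.2) with WY14643. Untreated del337TR animals lay on both sides of the controls, 2 above the highest and 2 below the lowest, and the group means were nearly level. From highest to lowest these were 150 ± 14.8 (SD, n = 7) in controls, 144 ± 38.2 in del337TR, 139 ± 27.1 in treated del337TR and 133 ± 20.8 in treated controls. Over the 4 comparisons of a pair of groups the 95% intervals of the fold reached from 0.707 to 1.29, with the smallest limma adjusted p at 0.842.

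Rxra, the retinoid X receptor whose loss in mice disturbs heart development, had a steady main probe set. Signals of 1454773_at ran from 344.7 to 413.9 in controls (median 381.5) and from 321.9 to 448.7 in del337TR (median 355.3). With WY14643 they ran from 303.4 to 563.3 in controls (median 395.8) and from 324.2 to 469 in del337TR (median 408). The group means lay between 380 ± 24.4 and 401 ± 49.6, a ratio of 1.05 from highest to lowest. No comparison of a pair of groups exceeded 0.06 ± 0.12, and the 95% intervals of the fold reached from 0.848 to 1.24.

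The second Rxra probe set, 1425762_a_at, depended on 1 array. Signals ran from 146.1 to 194.4 in controls (median 163.2) and from 99.3 to 196.4 in del337TR (median 153.9). With WY14643 they ran from 26.7 to 235.5 in controls (median 155.5) and from 63.3 to 172.1 in del337TR (median 133.4). The value of 26.7 was that of replicate 7 of the treated controls, whose next lowest neighbour stood at 139.2. With this array the log2 difference was -0.42 ± 0.31 for the treatment in controls and -0.16 ± 0.31 for strain under WY14643. Without it they stood at -0.04 ± 0.19 and -0.54 ± 0.19 (limma adjusted p = 0.821 and 0.926 with it, 0.995 and 0.590 without it, for Rxra 1425762_a_at). For WY14643 in del337TR, which does not use that array, 6 of 7 treated animals lay below the median of the untreated ones, at -0.37 ± 0.31 (adjusted p = 0.932). This value was -0.22 without replicate 4 of the treated del337TR animals and -0.55 with the actin ratio as a covariate.

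The third, 1430497_at, had signals from 5 to 23 over all arrays, in the range taken as background, and log2 differences of up to 0.30 ± 0.32 in size. The 3 Rxra probe sets did not vary together to a degree that passed a test. Pearson's r was 0.18 between the brighter 2 (rho 0.02), -0.20 between 1454773_at and 1430497_at (rho -0.18) and -0.01 between the dimmer 2 (rho 0.17), with permutation p = 0.355, 0.315 and 0.963 for r (0.936, 0.363 and 0.399 for rho). The gap between the brighter 2 stood at 0.43 ± 0.31 for WY14643 in both strains and 0.43 ± 0.22 averaged (limma adjusted p = 0.760). Without replicate 7 of the treated controls it was 0.10 ± 0.22 in controls and 0.26 ± 0.16 averaged (limma adjusted p = 1.00 and 0.837).

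Rxrb 1416990_at, the receptor expressed in most tissues, had signals from 399.2 to 635.9 in controls (median 452) and from 383.4 to 619.1 in del337TR (median 433.9). With WY14643 they ran from 398.8 to 803.8 in controls (median 469.7) and from 334.4 to 669.7 in del337TR (median 447.7). The highest value, 803.8, was again that of replicate 7 of the treated controls. Group means ran from 484 ± 84.5 in controls to 543 ± 141 in treated controls. The largest log2 differences between a pair of groups were 0.14 ± 0.17 for the treatment in controls and -0.14 ± 0.17 for strain under WY14643, which share the treated controls. Without that array they stood at 0.04 and -0.04. The signal of Rxrb followed the actin ratio at r = 0.53 and rho = 0.40 (permutation p = 0.00344 and 0.0356, adjusted 0.0929 and 0.312 over 27 relations of members with array measures). Without the 2 farthest arrays r was 0.32.

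Rxrg 1418782_at, the retinoid X receptor known from skeletal muscle and heart, had the narrowest spread of the members, with an SD of 0.17 on the log2 scale within groups. Only 14.7% of the brighter probe sets varied less. Signals ran from 517.9 to 690.4 in controls (median 671.9) and from 488.9 to 686.3 in treated controls (median 554.1). In del337TR they ran from 562.5 to 744.8 (median 676.8) without and from 513.7 to 778 (median 594.8) with WY14643. In both strains 6 of 7 treated animals lay below the median of the untreated ones. The log2 difference with WY14643 was -0.15 ± 0.10 in controls (limma adjusted p = 0.796), -0.10 ± 0.10 in del337TR and -0.13 ± 0.07 averaged over strain (adjusted p = 0.722). The 95% intervals over the 4 comparisons of a pair of groups reached from 0.781-fold to 1.26-fold.

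Atrial marker signals differed between the hearts: the summed signal of Myl4, Myl7 and Sln ran from 116.4 to 22427.1 in controls, 1201.8 to 31988.7 in del337TR, 182.1 to 17132.7 in treated controls and 183 to 33331.2 in treated del337TR animals. None of the 27 relations of members with the actin ratio, the median signal or the mean of these atrial markers had an adjusted p under 0.05. Rxrg lay lower where atrial markers were high, at r = -0.39 and rho = -0.38 (permutation p = 0.0431 and 0.05, adjusted 0.291 and 0.312), with r between -0.73 and -0.39 within the 4 groups. Rxra 1425762_a_at followed the actin ratio at r = -0.53 (permutation p = 0.0164, adjusted 0.221), a relation that rested on 2 arrays, since r was -0.14 without them.

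**Figure D3:**
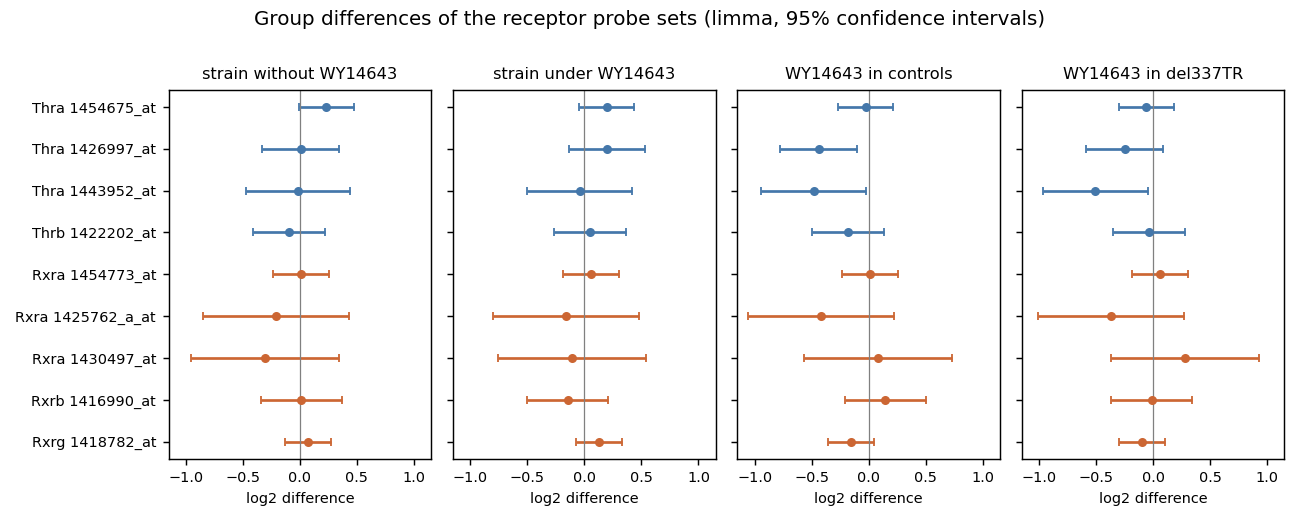
Log2 differences of the 9 probe sets in the 4 comparisons of a pair of groups (limma, points) with 95% confidence intervals (lines), Thra and Thrb in blue and the retinoid X receptors in orange. Only 1426997_at and 1443952_at of Thra have intervals clear of 0, both for WY14643 in controls and the latter also in del337TR, and none passed after adjustment.

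The receptors and their partners were not shown to vary together from heart to heart. Of 10 relations between the main probe sets of different members none had an adjusted p under 0.05. The largest was that of Thrb with Rxrg, at r = 0.37 and rho = 0.39 (permutation p = 0.0519 and 0.0424, adjusted 0.519 and 0.424). It was 0.33 without the 2 farthest arrays, and ran from -0.32 to 0.68 within groups.

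The genes whose pattern was most like each member were taken as those with the highest Pearson r over the 28 arrays with group means removed, among 13324 genes. For Thra these were C1qa (0.75), which encodes a chain of complement C1q, Cyp2d22 (0.74) and Tmem164 (0.70). For Thrb they were Nodal (0.70), Cipc (0.70), which encodes a partner of the clock protein CLOCK, and Rpain (0.62). For Rxra they were Ric1 (0.75), Pbrm1 (0.69), a subunit of a chromatin remodelling complex, and Arpc5l (0.68). For Rxrb they were Vtn (0.72), which encodes vitronectin, Sun2 (0.70) and Rab29 (0.69), and for Rxrg Arhgap9 (0.76), Hebp1 (0.75) and the mitochondrial adenylate kinase Ak3 (0.73). Each r is among the highest of 13324, and how high these would be by chance was not worked out. No member appeared among the 3 genes most like another, which says little where 13324 genes compete for 3 places.

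The genes around the receptors were described by 8 lists, in which 79 of 85 genes were measured. No gene of these lists passed limma's threshold in any of the 7 comparisons. At an unadjusted p under 0.05, WY14643 in controls had 7 of 79 higher and 3 lower, beside 2.53% and 4.6% of all genes. Strain under WY14643 had 3 higher and 10 lower, beside 5.65% and 4.57%. Strain without WY14643 had 1 higher and 2 lower (1.61% and 1.74%), and WY14643 in del337TR 0 higher and 5 lower (2.39% and 3.57%). The difference of effects had 3 higher and 4 lower (2.83% and 1.82%).

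Corepressor and coactivator genes lay near 0, and the side on which they lay depended on the scaling. Of 8 measured corepressor complex genes 4 were higher and 4 lower for strain without WY14643 (median 0.02, beside 0.00 over all genes), and 5 and 3 for WY14643 in controls (median 0.02, beside -0.03). The deacetylase gene Hdac3 stood at -0.07 ± 0.07 for strain under WY14643 and the NCoR partner Tbl1x at 0.08 ± 0.07 for strain without it. Sin3a, a scaffold of another deacetylase complex, stood at -0.31 ± 0.13 for WY14643 in del337TR (limma adjusted p = 0.839). Of 13 coactivator and mediator genes 6 were higher and 7 lower for strain without WY14643 (median -0.00), and 4 and 9 for WY14643 in controls (median -0.02), which became 12 and 1 (median 0.04) with arrays centred on their median. Under that centring all 8 corepressor complex genes were lower for strain under WY14643 (median -0.11), against 4 of 8 as reported (median -0.03). The acetyltransferase gene Ep300 stood at -0.23 ± 0.12 for WY14643 in del337TR, and Med24, a mediator subunit, at 0.24 ± 0.15 for strain under WY14643.

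Among 13 measured receptors that pair with RXR, Ppard stood at 0.44 ± 0.18 for the treatment in controls and -0.67 ± 0.18 for strain under WY14643 (limma adjusted p = 0.710 and 0.403), which share the treated controls. Its mean signal was 242 ± 65.0 (SD, n = 7) in these, 178 ± 44.2 in untreated controls, 181 ± 50.0 in del337TR and 150 ± 22.9 in treated del337TR. Pparg, the receptor of fat cells, stood at -1.11 ± 0.32 for strain under WY14643 and -0.96 ± 0.32 for WY14643 in del337TR (adjusted p = 0.403 and 0.767). These rest on dim signals, with means of 43.2 ± 25.5 in treated del337TR, 75.0 ± 25.6 in untreated del337TR and 82.5 ± 26.0 in treated controls. All lay below the highest olfactory receptor mean of 138.3, and that of treated del337TR below their median of 44.5. Adipocyte markers were lower in the same comparisons for 3 of 3 measured genes (median -0.90 and -1.30). Their summed signal ran from 59.6 to 188.3 in treated del337TR, 179.1 to 393.2 in untreated del337TR, 142.5 to 294.6 in treated and 136.6 to 414.3 in untreated controls. Their part in the Pparg values was not tested. Ppara, the receptor that WY14643 binds, stood at -0.49 ± 0.18 for WY14643 in del337TR (adjusted p = 0.783), and the oxysterol receptor gene Nr1h3 at 0.35 ± 0.13 for WY14643 in controls. Of 10 other nuclear receptors 5 were higher and 5 lower for strain without WY14643, where Nr2f6 stood at -0.28 ± 0.12.

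Among genes of hormone supply, Slco1c1, a thyroxine transporter, stood at 1.98 ± 0.50 for WY14643 in controls (limma adjusted p = 0.628) on mean signals of 23.3 and 5.93, under the median of the olfactory receptor genes. Slc7a8, an amino acid transporter that also carries thyroid hormone, stood at -0.53 ± 0.15 (adjusted p = 0.628), with mean signals of 88.8 ± 19.0 and 128 ± 28.6. Crym, which binds thyroid hormone in the cytosol, stood at 1.27 ± 0.55 for strain under WY14643, also on dim signals. Retinoid supply genes had 7 of 8 higher for WY14643 in del337TR (median 0.23, beside -0.00 over all genes) and for strain under WY14643 (median 0.18, beside 0.02), with 0 of 8 at an unadjusted p under 0.05 in each. With arrays centred on their median these counts were 6 of 8 (median 0.20) and 5 of 8 (median 0.10). Crabp1, Crabp2 and Stra6 of this list had group means from 4.04 to 14.2, under the median of the olfactory receptor genes. On these dim signals Stra6 stood at 0.48 ± 0.33 for WY14643 in del337TR and Crabp1 at 1.13 ± 0.59 for strain under WY14643. Rdh10 of the same list, which makes retinal for retinoic acid synthesis, stood at 0.19 ± 0.11 for WY14643 in del337TR.

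Of 12 measured genes listed as induced by thyroid hormone in heart, 10 were higher for WY14643 in controls (median 0.21, beside -0.03 over all genes) and 10 lower for strain under WY14643 (median -0.36, beside 0.02). The list was written from general knowledge with earlier results of these data known. These 2 comparisons share the treated controls. Cardiomyocyte markers were higher for 7 of 8 genes for WY14643 in controls (median 0.15), or 4 of 8 after quantile normalization. Myh6 is both a cardiomyocyte marker here and on the induced list, so these are not separate measures. Adipocyte markers were lower for 3 of 3 for strain under WY14643 (median -0.90). The part of either marker list in the counts of induced genes was not tested. Between the strains, the effect of WY14643 was lower in del337TR than in controls for 12 of 12 (median -0.31, beside 0.01), 2 of them at an unadjusted p under 0.05, and for 11 of 12 with quantile normalization. This comparison uses the same treated controls again, so its count is not separate from the counts above. Thrsp, a lipogenic gene, stood at -0.88 ± 0.22 for strain under WY14643 and the uncoupling protein gene Ucp3 at -0.87 ± 0.28 (limma adjusted p = 0.403 and 0.428). Without WY14643, 8 of 12 were lower in del337TR (median -0.08), or 7 with arrays centred on their median and 10 with quantile normalization, with Ucp3 at -0.44 ± 0.28 and the pacemaker channel gene Hcn2 at -0.35 ± 0.21. Klf9, a transcription factor, stood at 0.28 ± 0.11 for WY14643 in controls.

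Of 7 genes listed as repressed by thyroid hormone in heart, 6 were higher in del337TR without WY14643 (median 0.07, beside 0.00 over all genes). Under WY14643 6 were higher as well (median 0.14, beside 0.02). The counts were 5 without it after quantile normalization and 5 under it after centring arrays on their median. The list was written from general knowledge and held Nppa, Nppb and Tshb, whose repression by the hormone in heart was not checked. Myh7 stood at 1.14 ± 0.38 and Nppa, the atrial natriuretic peptide, at 0.89 ± 0.30 under WY14643 (limma adjusted p = 0.428 for both), and Nppb at 0.55 ± 0.26 without it. Atrial markers were higher for 3 of 3 genes in both comparisons (median 2.67 without and 0.91 under WY14643), and their part in these values was not tested.

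**Figure D4:**
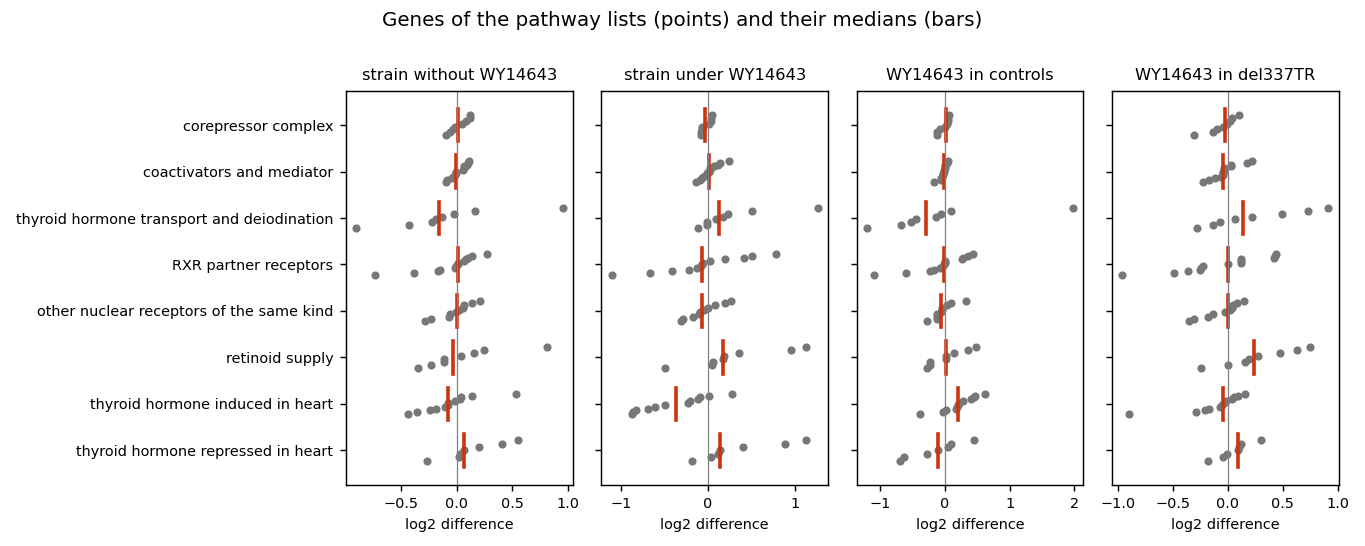
Log2 differences (limma) of the measured genes of the 8 lists around the receptors, 1 point per gene, with the list median as a bar, in the 4 comparisons of a pair of groups. Corepressors and coactivators lie close to 0, and thyroid hormone induced genes shift to a median of 0.21 for the treatment in controls and -0.36 for strain under WY14643, with no gene past the threshold.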

How the data were processed

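The authors deposited 1 intensity value per probe set and array on a linear scale. The submitters' processing notes name RMA, but the values had no form that RMA gives: they were linear, and on every array their 2% trimmed mean came to 250.0. They were used as globally scaled signals. Of 45101 probe sets, 64 array controls were left out. Values were floored at 0.1, the lowest above 0, and log2 transformed. Group means of all 28 arrays were fitted by lmFit, contrasts.fit and eBayes of limma 3.58.1 (R 4.3.3) without covariates, and tested on simulated data. The design had assumed log2 values. Pairs of probe sets of 1 gene were fitted as differences within arrays. Of the 45037 tested probe sets 34945 had 1 symbol, 932 several and 9160 none in the platform annotation. A gene of a list is read by its brightest probe set, and in each list and comparison at most the 2 genes with the smallest p are named. Correlations used 100000 permutations. Sex was read from Xist and Eif2s3y. The members, lists and tests were chosen with earlier results of these data known. Arrays are single animals, none of the 378 pairs held identical values, and no batch is given in the sources used here.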

Additional observations from a re-analysis of the deposited data

Results flagged for a closer look

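Among 36 sets of 7 signals (9 probe sets in 4 groups) 2 held an array far from the others, where chance alone gives about 1 in 20. Both were replicate 7 of the treated controls, the array least like its group and with the highest actin ratio. Rxra 1425762_a_at stood there at 26.7, below the nearest of the others at 139.2, and this gap was 0.758 of the group's whole range. Thra 1443952_at stood at 114.9, below the nearest at 182.6, a gap of 0.598 of the range. The values of both probe sets without this array, and of the gaps printed for them, stand beside the results above.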

How the results depend on the processing

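The count of members past the threshold was 0 in every comparison under all alternatives run, as were those of member pairs and of list genes. The alternatives were 12 settings, which included a pseudocount of 16, a filter at the 40th percentile of mean signal, a robust eBayes fit with a trend, array weights, quantile normalization, median centring, only the groups compared, sex as a covariate and gene means over probe sets. Each array was also left out in turn. Fits without replicate 7 of all 4 groups and fits with the actin ratio as a covariate were chosen after seeing the data. The smallest limma adjusted p of a member under any of these was 0.331 and that of a member pair 0.390. Of 659 member values under the settings that keep single probe sets, 38 changed sign, as did 88 of 1764 with 1 array left out, none of them past the threshold. Median centring turned the difference of effects for Rxrg from 0.06 to -0.04 and for Rxra 1454773_at from 0.05 to -0.05. The Thra 1443952_at difference for WY14643 averaged over strain ran from -0.54 to -0.43 with 1 array left out, and that of 1426997_at from -0.38 to -0.30. With the replicate number as a block the counts were 0 as well, and these 2 differences stayed at -0.49 ± 0.14 and -0.35 ± 0.12 (limma adjusted p = 0.485 and 0.554). The numbers were not taken to pair the animals. Same-numbered arrays deviated together at a mean r of 0.02, beside -0.004 for arrays of other numbers, and 1 of 42 same-numbered pairs was over 0.1. Of 28 arrays 13 were most like an array of their own number, where 4 would be if the 21 arrays of the other groups were equally likely, a hint from the data and not the design. Replicate 7 was also the array least like its group in all 4 groups. Whether a number marks a shared run is not given in the sources used here.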

Other observations

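Signals of the receptors varied more between untreated del337TR animals than between untreated controls for several members. The SD on the log2 scale was larger in del337TR for 7 of 9 probe sets, beside 52.9% of 27022 brighter probe sets. It was more than 2 times as large for 3 of 9, beside 9.82%. These were Thrb, at 0.40 against 0.14, Thra 1454675_at, at 0.29 against 0.11, and Rxra 1454773_at, at 0.19 against 0.09. Rxrg, at 0.15 against 0.18, and the dim Rxra 1430497_at had a smaller SD in del337TR. Under WY14643 the SD of Thrb was 0.30 in del337TR against 0.22 in controls, that of Thra 1454675_at 0.19 against 0.20 and that of Rxra 1454773_at 0.18 against 0.32, so the last 2 were not larger in del337TR there. The pattern was noticed in the data, and it was not tested. The sexes were nearer to even in that group, with 4 females and 3 males against 2 and 5 in controls, and its part was not tested.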
